A study of Mus musculus with 13 samples.

Results

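The microRNA processing and silencing machinery was followed across all probe sets of the deposited array table that were annotated to Drosha, Dgcr8, Xpo5, Dicer1, Ago1, Ago2, Ago3, Ago4, Tnrc6a or Ddx6. These 10 genes had 36 probe sets among 45037 that were not Affymetrix controls, and each probe set was kept on its own. The arrays held RNA from the whole brain of single mouse embryos at embryonic day 18.5, from 6 wild-type embryos and 7 Meg3 knock-out embryos. The embryos came from 5 litters, of which 4 held both genotypes, and litter 148 held 1 knock-out embryo only. The sources used here do not state the strain or which part of Meg3 was removed. The genes were listed by function, but they were chosen on knowledge of earlier results, namely the knock-out and wild-type signals of these same arrays. Their differences between genotypes are therefore given as a description, without a test.

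MicroRNAs are cut out of long host transcripts in steps. In the nucleus the ribonuclease Drosha, held by the RNA-binding protein Dgcr8, releases a hairpin, which the transport receptor Xpo5 (exportin 5) carries to the cytoplasm. There Dicer1 trims the hairpin to a short duplex and an Argonaute protein (Ago1 to Ago4) takes up 1 strand of it. The strand pairs with messenger RNAs mostly through its seed, bases 2 to 8, and Argonaute then recruits Tnrc6a, a GW182 scaffold protein. Through the CCR4-NOT deadenylase this leads to the RNA helicase Ddx6, which represses translation and promotes removal of the cap. Both steps belong to silencing in the developing brain, where Dicer1 is needed for neurons to form and survive.

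The machinery was examined because Rian and Mirg, neighbours of Meg3 in the imprinted Dlk1-Dio3 cluster, host many microRNAs. In the RefSeq annotation of GRCm38.p6, 6 mature microRNAs lay within the span of Rian and 19 within that of Mirg, all on chromosome 12, and together they carried 24 different seeds. The following 8 show what these hosts encode. They include miR-453 and miR-496a-5p, the only pair of the 25 with a shared seed. Capitals mark the seed, and all 8 lie on the + strand. MicroRNAs themselves were not measured on these arrays.
miR-341-3p (Rian, chr12:109611556-109611576): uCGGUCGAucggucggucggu
miR-370-3p (Rian, chr12:109618305-109618326): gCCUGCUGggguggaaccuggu
miR-453 (Mirg, chr12:109735669-109735692): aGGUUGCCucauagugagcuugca
miR-496a-5p (Mirg, chr12:109739132-109739152): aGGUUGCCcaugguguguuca
miR-154-3p (Mirg, chr12:109738474-109738495): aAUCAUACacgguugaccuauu
miR-377-3p (Mirg, chr12:109740553-109740574): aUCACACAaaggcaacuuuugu
miR-409-3p (Mirg, chr12:109743204-109743225): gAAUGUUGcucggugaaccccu
miR-410-3p (Mirg, chr12:109743764-109743784): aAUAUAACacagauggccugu

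Both host transcripts were much lower in the knock-out brains, on the most intense probe set of each. Mirg signals were 199, 358 and 429 (lowest, median and highest) in wild-type and 21.8, 40.8 and 91.2 in knock-out arrays, a log2 difference of -2.46 ± 0.23 SE (limma adjusted p = 0.000137). Rian signals were 2574, 7785 and 8317 in wild-type and 175, 399.6 and 549 in knock-out arrays, a log2 difference of -4.05 ± 0.30 SE (limma adjusted p = 6.34e-06). The knock-out label was borne out by Meg3, with a log2 difference of -3.64 ± 0.21 SE (limma adjusted p = 4.39e-07). These differences are on the log2(signal + 16) scale, as are all log2 differences given here, which understates the change of weak probe sets. In each of these 3 genes the groups did not overlap.

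Signals are linear intensities, and levels of different probe sets cannot be set against each other. The brain label was borne out by the markers: each of the 5 neuronal genes looked at, among them Tubb3 and Snap25, had a probe set above the filter, and their summed signal was 53124 to 74282 in wild-type and 61021 to 78024 in knock-out arrays. The summed signals of all 9 marker lists, from neurons to meninges, overlapped between genotypes. The widest difference was that of the choroid plexus list, at 22003 to 36383 in wild-type and 7915 to 30483 in knock-out arrays, with 4 of its 5 genes above the filter. In whole brain, fewer cells of a type and less RNA per cell cannot be told apart. On 2 arrays the ratio of 3' to 5' signal of the Actb control probe sets, which grows when RNA is degraded, stood apart: it was 2.92 in wild-type 2 and 1.81 in knock-out 1, against 1.32 to 1.495 elsewhere. Correlations between arrays over the tested probe sets ranged from 0.881 to 0.988.

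All 10 genes had at least 1 probe set above the filter on low values, a mean signal of 56.9, and 28 of the 36 probe sets passed it. The fit covered 27022 probe sets. None of the 28 passed the limma threshold of 0.05 on the adjusted p, where 0.0629% of all tested probe sets were called in either direction. An unadjusted limma p under 0.05 was found for 5 of the 28, all with higher knock-out means, beside 3.96% of all tested in either direction, 3.76% higher and 0.204% lower. In none of the 28 were the groups free of overlap, beside 0.133% of all tested, 0.0703% with the knock-out group higher. Mean log2 differences were above 0 in 22 of the 28 and below 0 in 6, where 72.5% of all tested probe sets lay above 0. The median over the 28 was 0.19 and over all tested 0.08, and 19 of the 28 lay above that median. These shares are given side by side, and nothing is read from them, since the genes were chosen with this contrast known.

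**Figure D1:**
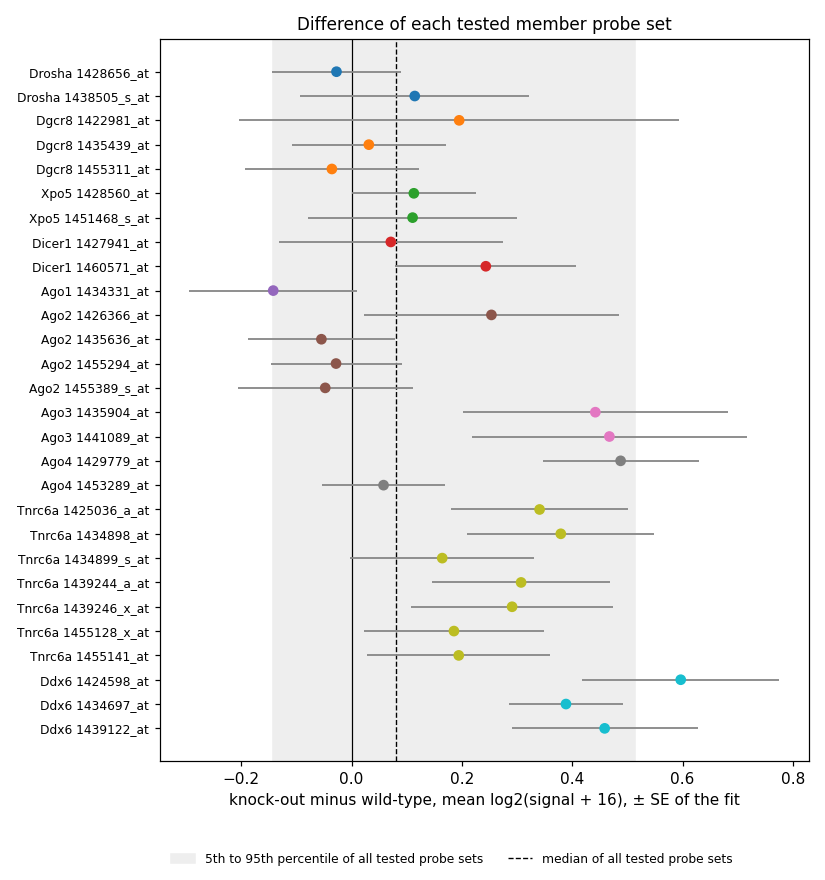
Difference between knock-out (n = 7) and wild-type (n = 6) means on the log2(signal + 16) scale for the 28 tested probe sets, with the standard error of the limma fit as bars; the grey band spans the 5th to 95th percentile of all 27022 tested probe sets, -0.14 to 0.51, and the dashed line their median of 0.08. The 3 Ddx6 probe sets lie between 0.39 and 0.60 and the 7 of Tnrc6a between 0.16 and 0.38, while 3 of the 4 Ago2 probe sets lie just below 0.

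The sign of a difference depended on how arrays were scaled. The median of all tested probe sets was 0.08 as deposited, -0.01 after quantile normalization and -0.12 after median centring. The median of the 28 moved with it, to 0.11 and -0.01, and 20 and 12 of them kept a mean above 0. Relative to the median of all tested, 19 stood above as deposited, 20 after quantile normalization and 19 after median centring. The probe sets that stayed above 0 under every scaling included the 3 of Ddx6, the 2 of Ago3 and the more variable Ago4 probe set.

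Drosha, the nuclear ribonuclease, was represented by 3 probe sets, of which 2 passed the filter. Signals of 1428656_at were 1333, 1653 and 1747 (lowest, median and highest) in wild-type and 1204, 1643 and 1828 in knock-out arrays. The groups overlapped over nearly their whole range, and the log2 difference was -0.03 ± 0.12 SE. Signals of 1438505_s_at were 2724, 3618 and 6483 in wild-type and 2664, 4070 and 6135 in knock-out arrays, with a log2 difference of 0.11 ± 0.21 SE. The high values came from wild-type 2 and knock-out 1, 1 array of each genotype. The third probe set, 1438440_at, ranged from 3.87 to 135 and lay below the filter.

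Dgcr8, which binds the primary transcript and anchors Drosha, had 4 probe sets, 3 of them above the filter. Signals of 1435439_at were 491, 683 and 814 in wild-type and 573, 665 and 859 in knock-out arrays (log2 difference 0.03 ± 0.14 SE). Those of 1455311_at, made from the same source sequence, were 654, 801 and 963 against 629, 678 and 1131 (log2 difference -0.04 ± 0.16 SE). Neither probe set separated the genotypes, and the means of both groups differed by less than their SD. The weaker 1422981_at spread far more, from 44.1 to 331 in wild-type and from 47.2 to 339.7 in knock-out arrays, with a log2 difference of 0.19 ± 0.40 SE. The fourth probe set, 1446169_at, had mean signals of 13.3 and 23.9 and lay below the filter.

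Xpo5 and Dicer1, which act next, likewise overlapped between genotypes. Xpo5 signals were 607, 839.7 and 869 in wild-type and 768, 842 and 988 in knock-out arrays on 1428560_at, and the log2 difference was 0.11 ± 0.11 SE. On 1451468_s_at they were 238, 469 and 510.1 against 302, 449.7 and 602, again with a log2 difference of 0.11 ± 0.19 SE. The lowest Xpo5 value on both probe sets was that of wild-type 2. Median centring took the Xpo5 differences to -0.08 and -0.09.

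Dicer1, the cytoplasmic ribonuclease that makes the duplex, had 2 probe sets that behaved differently. Signals of 1460571_at were 505, 783 and 1162 in wild-type and 808, 904 and 1116 in knock-out arrays, a log2 difference of 0.24 ± 0.16 SE. All 7 knock-out values lay above the wild-type median, but the highest value of all was that of wild-type 2. Within litters the difference was 0.23, 0.19, 0.08 and 0.39 in litters 219, 238, 250 and 262. Signals of 1427941_at were 149, 284 and 335 in wild-type and 163, 295 and 362 in knock-out arrays, with a log2 difference of 0.07 ± 0.20 SE. This one differed by 0.81 in litter 219, where wild-type 1 had the lowest signal, and by -0.12, -0.09 and 0.11 in the other litters.

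The 4 Argonautes gave unlike values. Ago2, the only one of them that cuts a fully paired target RNA, had 4 probe sets above the filter. On the most intense, 1455389_s_at, signals were 1275, 2131 and 2251 in wild-type and 1381, 2107 and 2271 in knock-out arrays, a log2 difference of -0.05 ± 0.16 SE. On 1435636_at they were 762, 1153 and 1257 against 833, 1007 and 1214 (log2 difference -0.05 ± 0.13 SE), and on 1455294_at 359, 503 and 563 against 418, 458 and 532 (-0.03 ± 0.12 SE). In these 3 the groups overlapped almost completely. The weakest, 1426366_at, had signals of 148, 190.3 and 274 against 123, 269 and 347, with a log2 difference of 0.25 ± 0.23 SE that ran from -0.61 in litter 262 to 0.80 in litter 250.

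Ago1, which represses targets without cutting them, had a single probe set, 1434331_at. Its signals were 1823, 2297 and 2829.6 in wild-type and 1527, 2288 and 2541 in knock-out arrays, and its log2 difference of -0.14 ± 0.15 SE was the lowest among the 28. Litters 238 and 262 gave -0.39 and -0.25, and litters 219 and 250 gave 0.03 and -0.01.

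Ago3, a further member of the family, had 5 mostly weak probe sets. On 1435904_at signals were 63.8, 173 and 275 in wild-type and 140.3, 239.8 and 261 in knock-out arrays, and the log2 difference was 0.44 ± 0.24 SE. No knock-out array exceeded the highest wild-type array, and the lowest values were wild-type 1 and knock-out 4. On 1441089_at signals were 42.8, 57.8 and 113 against 42.8, 98.7 and 182, with a log2 difference of 0.47 ± 0.25 SE. Without litter 219, which held wild-type 1, the differences were 0.14 and 0.29. The remaining 3 Ago3 probe sets lay below the filter, with group means from 12.2 to 63.3.

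Ago4, the fourth member, had 2 probe sets from the same source sequence, and they disagreed. Signals of 1429779_at were 199, 270.4 and 327 in wild-type and 296, 375 and 489.7 in knock-out arrays. Of the 7 knock-out arrays 6 lay above every wild-type array, and the seventh, knock-out 7 of litter 262, stood beside its littermate at 296 against 294. The log2 difference was 0.49 ± 0.14 SE, a ratio of 1.40-fold, and within litters it was 0.74, 0.51, 0.32 and 0.01. Signals of the more intense 1453289_at were 791, 875 and 1065 in wild-type and 761, 979 and 1077 in knock-out arrays, with a log2 difference of 0.06 ± 0.11 SE. The sources used here do not say which transcripts each detects.

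Tnrc6a, the scaffold that links Argonaute to the deadenylase, had 9 probe sets, and all 7 above the filter had higher means in knock-out brains. They share sequence: 3 were made from 1 source sequence and another 3, 1 of them below the filter, from a second, so they are not independent readings. Signals of the most intense, 1439244_a_at, were 1074, 1746 and 2177 in wild-type and 1598, 2071 and 2697 in knock-out arrays, with a log2 difference of 0.31 ± 0.16 SE. The probe set with the highest difference, 1434898_at, gave 545, 814 and 1038 against 739.7, 960.5 and 1279.7 (log2 difference 0.38 ± 0.17 SE). The lowest difference was 0.16 ± 0.17 SE on 1434899_s_at, with 739, 1194 and 1483 against 1000.1, 1416 and 1516. In every one of the 7 the groups overlapped.

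In litter 219 the Tnrc6a differences ran from 0.09 to 0.73 and in litter 238 from -0.30 to 0.12. On 1439244_a_at they were 0.72 in litter 219 and 0.02, 0.20 and 0.05 in litters 238, 250 and 262, and on 1425036_a_at 0.73, -0.10, 0.25 and 0.21. Wild-type 1 of litter 219 had the lowest wild-type signal on 5 of the 7 probe sets, as on 1455141_at, at 774 against 1135 to 1511 in the other wild-type arrays. Without litter 219 the difference of 1425036_a_at went from 0.34 to 0.14. Those of 1434899_s_at and 1455128_x_at went to -0.06 and -0.05. Median centring brought 3 of the 7 to 0 or just below it, between -0.03 and -0.00, as the median of all tested went to -0.12.

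Ddx6, the helicase of P bodies that represses and marks bound messenger RNAs for decapping, had higher means in knock-out brains on all 3 probe sets above the filter. On its main probe set, 1434697_at, wild-type signals were 3390, 3688 and 4098 and knock-out signals 3889, 4938 and 5397. Of the 7 knock-out arrays 6 lay above every wild-type array, and knock-out 4 was the exception, below wild-type 1 and wild-type 3. The means were 3732 ± 321 (SD, n = 6) and 4899.7 ± 514 (SD, n = 7), a log2 difference of 0.39 ± 0.10 SE or 1.31-fold. Within litters 219, 238, 250 and 262 the difference was 0.39, 0.10, 0.54 and 0.51.

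The weaker Ddx6 probe sets had means that differed the same way. Signals of 1424598_at were 202, 325 and 417 in wild-type and 319, 548 and 614 in knock-out arrays, a log2 difference of 0.60 ± 0.18 SE or 1.51-fold. Again 6 knock-out arrays lay above every wild-type array, but the exception here was knock-out 1, whose Actb ratio stood apart. Signals of 1439122_at were 226.5, 327 and 471 against 304, 489 and 572, with a log2 difference of 0.46 ± 0.17 SE, and 4 of 7 knock-out arrays lay above every wild-type array. All 3 had a higher knock-out mean in all 4 litters that allow the comparison. Of the 28 tested probe sets of the machinery 9 had that pattern, against 11.2% of all tested, and the other 6 were 3 of Tnrc6a and 1 each of Dicer1, Ago3 and Ago4. None of the 28 was lower in all 4, beside 2.41% of all tested. Nothing is read from these counts, since the genes were chosen with this contrast known. Probe sets of 1 gene are also not independent readings.

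**Figure D2:**
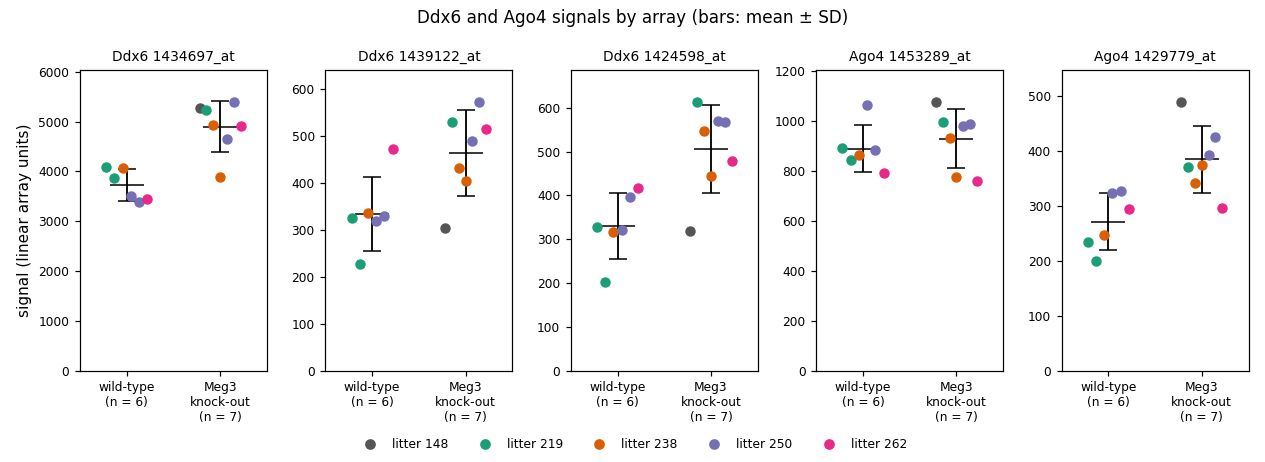
Signal of each array in linear units for the 3 tested Ddx6 probe sets and the 2 of Ago4, with wild-type and Meg3 knock-out side by side, points coloured by litter and bars giving mean ± SD. On Ddx6 1434697_at 6 of 7 knock-out arrays lie above every wild-type array, and the same holds on Ago4 1429779_at but not on Ago4 1453289_at.

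The Ddx6 differences were also computed without the arrays of deviating RNA quality. Without wild-type 2 and knock-out 1 they were 0.38, 0.57 and 0.45 on 1434697_at, 1424598_at and 1439122_at, close to the values over all 13 arrays. With the Actb ratio as a covariate they were 0.40, 0.45 and 0.34. The weaker probe sets 1424598_at and 1439122_at thus moved down from 0.60 and 0.46. Median centring gave 0.19, 0.40 and 0.26, the first of these a move larger than the SD between arrays. Across 29 alternatives of scaling, filter, pseudocount, blocks and arrays left out, 1434697_at ranged from 0.19 to 0.48. In the same alternatives 1424598_at ranged from 0.40, without litter 219, to 0.70, and 1439122_at from 0.26 to 0.56. The fourth Ddx6 probe set, 1447789_x_at, had mean signals of 20.4 and 24.2 and lay below the filter.

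Over all 13 arrays Ddx6 1424598_at and 1439122_at varied together, while 1434697_at did not vary with them. Taking each array's deviation from its genotype mean over 13 arrays, Pearson's r between 1424598_at and 1439122_at was 0.89, while 1434697_at had r of -0.16 and -0.05 with the other two. Without wild-type 2 and knock-out 1 the 3 values lay between 0.17 and 0.66. These correlations are descriptions over arrays that share litters and scaling. Among the 7 Tnrc6a probe sets the median r over 21 pairs was 0.75, and among the 4 of Ago2 it was 0.65 over 6 pairs.

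**Figure D3:**
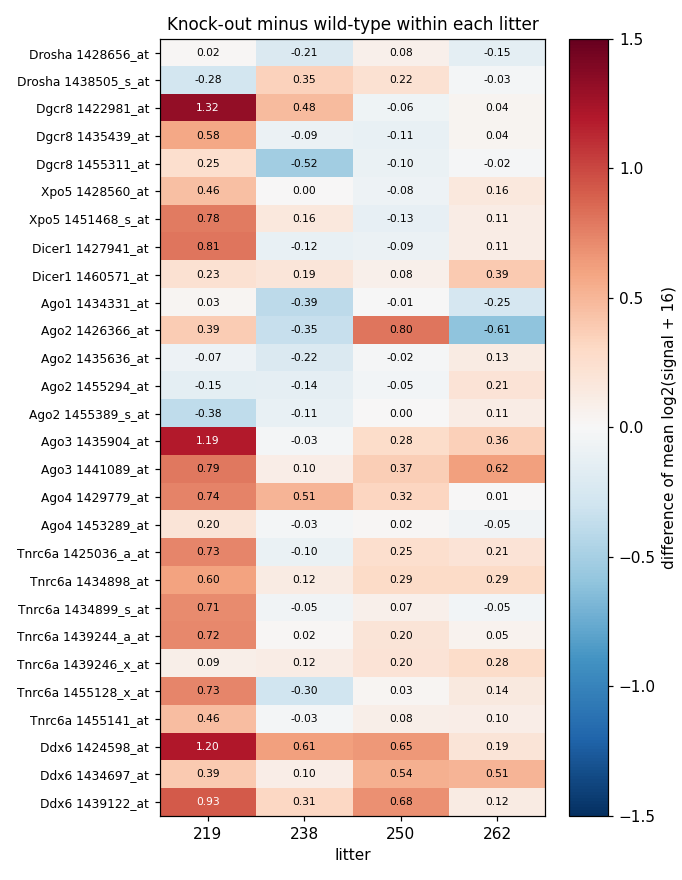
Knock-out minus wild-type difference of mean log2(signal + 16) within each of the 4 litters that held both genotypes, for the 28 tested probe sets; red is higher and blue lower in knock-out. Litter 219 has most of the deep red cells, and the 3 Ddx6 rows are positive in all 4 litters.

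Litter 219 weighed most on the whole set. In that litter the 28 probe sets had a median log2 difference of 0.52, beside 0.25 over all tested probe sets. In litters 238, 250 and 262 the medians of the 28 were -0.03, 0.08 and 0.11, beside 0.01, 0.04 and -0.01 over all tested. Litter 219 held wild-type 2, and it held wild-type 1, the array with the lowest signal on several members. These 2 arrays also had the lowest median signals over the whole array, 86.0 in wild-type 2 and 82.9 in wild-type 1. Knock-out 2 of the same litter had 113. The part of these arrays and of their scale in the litter's differences was not tested.

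On some probe sets of Ago2, Drosha and Dgcr8, the arrays of litter 262 stood together. Both embryos of litter 262, 1 of each genotype, had lower Ago2 signals than the other 11 arrays on 3 probe sets. Of these 3, 1435636_at and 1455389_s_at share a source sequence. On 1455389_s_at they stood at 1275 and 1381, against 1672 to 2271 elsewhere, and on 1435636_at at 762 and 833, against 973 to 1257. Drosha 1428656_at was also lowest in this pair, at 1333 and 1204 against 1380 to 1828 in the other arrays. Drosha 1438440_at, below the filter, went the other way, at 135 and 79.4 against 3.87 to 73.2. Dgcr8 1422981_at was highest in this pair, at 331 and 339.7 against 44.1 to 211, while Dgcr8 1435439_at and 1455311_at lay within the other arrays. In 6 of the 28 probe sets (21.4%) this pair lay above or below all other arrays, beside 17.0% of all tested. These shares are near each other, and nothing about the members is read from them. Litter and anything else the littermates shared cannot be told apart.

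**Figure D4:**
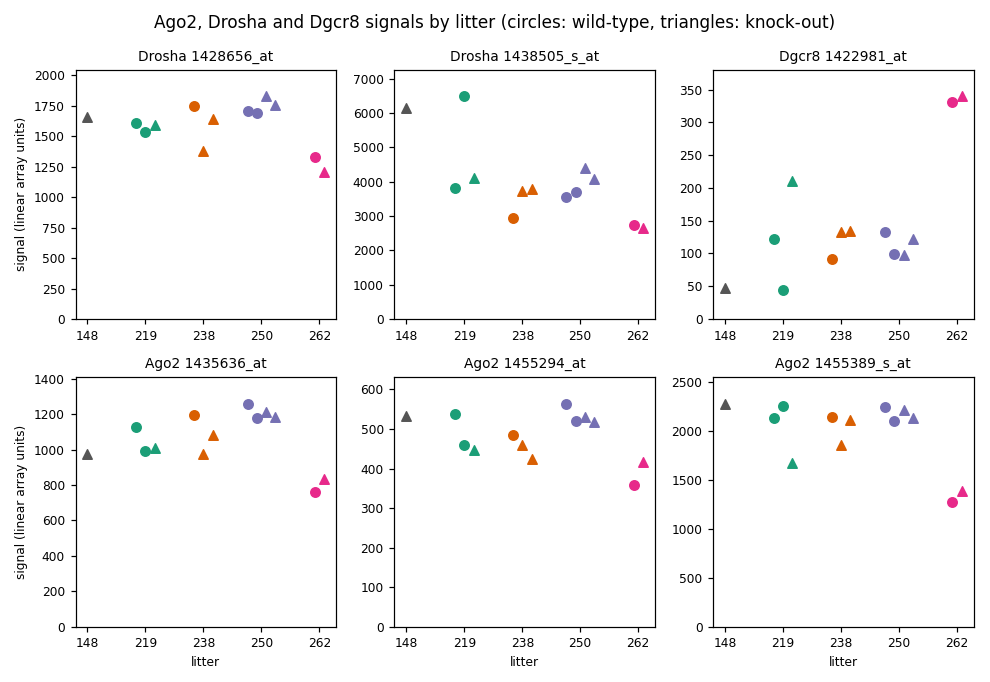
Signal of each array in linear units by litter for 3 Ago2 probe sets, 2 of Drosha and 1 of Dgcr8, with circles for wild-type and triangles for knock-out. Both arrays of litter 262 are the lowest in the Ago2 and Drosha panels and the highest, at 331 and 339.7, in the Dgcr8 panel.

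A test of litter was added after this was seen. In a limma fit with genotype and litter, 0 of the 28 members passed the F test for litter at an adjusted p of 0.05, where 0.0407% of all tested probe sets passed. With no adjustment 7 of 28 had a p under 0.05, against 19.2% of all tested. The smallest adjusted p among the members was 0.112 for Dgcr8 1422981_at, followed by 0.125 for Ago2 1455389_s_at. After quantile normalization 976 probe sets passed over the whole table and after median centring 646, but still 0 members.

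Wild-type 2 and knock-out 1, whose Actb ratio stood apart, lay both above or both below the other 11 arrays in 6 of the 28 probe sets (21.4%). Over all tested the share was 14.0%, and nothing about the members is read from these shares. Whether RNA quality had a part in the place of these 2 arrays was not tested. Drosha 1438505_s_at was highest in these 2 arrays, at 6483 and 6135 against 2664 to 4388. So was Dicer1 1460571_at, at 1162 and 1116 against 505 to 946. Dgcr8 1422981_at was lowest, at 44.1 and 47.2 against 91.3 to 339.7, and so was Xpo5 1451468_s_at, at 238 and 302 against 408 to 602. With the Actb ratio as a covariate the Dicer1 1460571_at difference was 0.37 and that of Dgcr8 1422981_at -0.10.

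**Figure D5:**
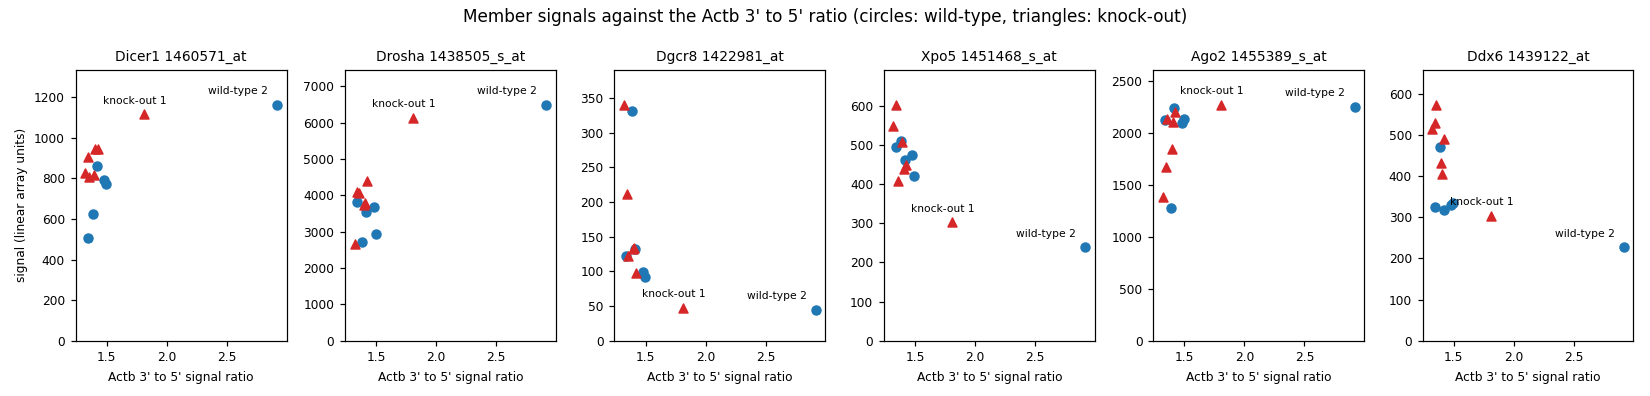
Signal in linear units of 6 member probe sets against the Actb 3' to 5' signal ratio of each array, with circles for wild-type and triangles for knock-out. Wild-type 2 (ratio 2.92) and knock-out 1 (ratio 1.81) are the highest in the Drosha, Dicer1 and Ago2 panels and the lowest in the Dgcr8, Xpo5 and Ddx6 panels.

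Other genes of the pathway were taken from 4 lists and read in the same fit, with 0 of their 160 tested probe sets past the threshold in either direction. For each gene the value is that of its most intense probe set, and where other tested probe sets of the gene went much further they are given too. Over all tested probe sets 72.5% had a mean above 0 and 3.96% an unadjusted limma p under 0.05. Among the partners of processing, 42 probe sets of 13 genes were tested, 40 (95.2%) with a mean above 0 and 1 (2.38%) at an unadjusted limma p under 0.05, and the median log2 difference was 0.14. After median centring the median of this list was -0.06. Ran, the GTPase that drives hairpin export with Xpo5, had signals of 10861 ± 696 (SD, n = 6) in wild-type and 11235 ± 582 (SD, n = 7) in knock-out brains. The helicase Ddx17, a Drosha cofactor, had a log2 difference of 0.17 ± 0.13 SE and the RNA-binding protein Hnrnpa1 of 0.22 ± 0.16 SE, up to 0.61 on its other tested probe sets. Of 29 probe sets for Argonaute loading and cofactors 21 (72.4%) had a mean above 0, with a median of 0.09 and 1 (3.45%) at an unadjusted p under 0.05. The chaperones Hspa8 and Hsp90aa1, which load Argonaute, stood at 0.0046 ± 0.15 SE and 0.13 ± 0.24 SE. The 4 tested Hspa8 probe sets disagreed, and 1431182_at was at 0.48 ± 0.18 SE. The helicase Mov10 stood at 0.16 ± 0.14 SE and the import receptor Ipo8 at 0.15 ± 0.14 SE, with 0.54 on its other probe set.

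The remaining lists hold partners of Tnrc6a and Ddx6. Of 45 probe sets for GW182 proteins and deadenylation 38 (84.4%) had a mean above 0, with a median of 0.09 and 1 (2.22%) at an unadjusted limma p under 0.05. The Tnrc6a relatives Tnrc6b and Tnrc6c had log2 differences of 0.18 ± 0.15 SE and 0.21 ± 0.14 SE. Pabpc1, the poly(A)-binding protein, stood at 0.02 ± 0.10 SE, with 0.48 on its other tested probe set, and the deadenylase Cnot7 at 0.0015 ± 0.12 SE. Of 44 probe sets for decapping and P bodies 30 (68.2%) had a mean above 0, with a median of 0.05 and 5 (11.4%) at an unadjusted p under 0.05. Lsm7, of the decapping activator ring, had a log2 difference of 0.28 ± 0.13 SE and the exonuclease Xrn1 of 0.32 ± 0.22 SE. The other tested Xrn1 probe set, 1450308_a_at, was at 0.73 ± 0.28 SE. The cap-binding protein Eif4e stood at -0.03 ± 0.14 SE and Lsm14b, a binding partner of Ddx6, at 0.02 ± 0.12 SE. In all 4 lists the limma adjusted p was 1.00 throughout.

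Genes whose array-to-array pattern was most like a member's were sought over 12919 other genes. Likeness was Pearson's r over 13 arrays of the log2 deviations from the genotype means, on the most intense probe set of each gene, and it carries no test. Closest to Ddx6 1434697_at were Spin1 (r = 0.94), Dlx1 (0.86) and Ppp1cc (0.86). Without wild-type 2 and knock-out 1, Spin1 remained the closest of all, at 0.97. For Ago2 1455389_s_at they were Fam117b (0.97), Dcaf5 (0.95) and Lhfpl4 (0.95), and for Dicer1 1460571_at Itgb8 (0.94), Ttbk2 (0.94) and Jakmip1 (0.93). Without those 2 arrays the Dicer1 neighbours ranked 53, 35 and 50 among all genes.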

How the data were processed

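The deposited values are linear intensities, 1 per probe set and array, and the sources used here do not give the software, summary method or scaling behind them. Per the labels' protocols, 5 µg of total RNA was labelled with biotin in a one-cycle procedure. In the deposited intensities all low values were whole multiples (tolerance 0.05) of a step that differed between arrays. Relative to wild-type 6 the step differed by a factor of 0.908 to 1.08, and removing that factor was 1 alternative. Read depth does not apply, and the number of arrays limits the precision.

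Values were turned into log2(signal + 16). Non-control probe sets with a mean above the 40th percentile were tested (27022 of 45037) with limma 3.58.1 in R 4.3.3, two-sided, without a litter term and with Benjamini-Hochberg adjustment over all of them. The script was tested on simulated data. Probe sets were named from the platform annotation, where 34945 carried 1 gene, 932 several and 9160 none here, and sequences came from RefSeq tables of GRCm38.p6. No promoter or protein sequence was used here. Figures used matplotlib 3.10.9.

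The members and lists were chosen with earlier results of these data known. Named beyond the members were Meg3, Rian and Mirg, the 2 genes of each pathway list with the highest mean and the 2 with the smallest unadjusted p, each gene taken by its most intense probe set, and the 3 genes most like Ddx6, Ago2 and Dicer1. The litter was read from the leading number of each embryo label. Deviations of littermates of unlike genotype had a median r of 0.05 (-0.12 to 0.75 over 9 pairs), against -0.03 over 33 other pairs. Alternatives covered scaling, pseudocount, filter, blocks by litter and by replicate number, the Actb ratio, and leaving out arrays or litters.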

Additional observations from a re-analysis of the deposited data

Results flagged for a closer look

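In 5 of 72 groups of a member probe set and a genotype, 1 array stood far from the rest by Dixon's criterion, where chance marks about 1 group in 20. Dicer1 1427941_at was 149 in wild-type 1, against 260 to 335 in the other wild-type arrays. Xpo5 1451468_s_at was 238 in wild-type 2, against 420.4 to 510.1. Ago2 1455389_s_at was 1275 in wild-type 6, against 2095 to 2251. Ago3 1435904_at was 140.3 in knock-out 4, against 206 to 261 in the other knock-out arrays. Tnrc6a 1455128_x_at was 1011 in knock-out 4, against 1307 to 1562. Wild-type 2 is an array whose Actb ratio stood apart, and wild-type 6 belongs to litter 262, whose knock-out embryo was also low for Ago2.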

How the results depend on the processing

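The count of 0 members past the limma threshold was the same under all 29 alternatives, as were the counts of 0 in the 4 pathway lists. Over all tested probe sets 17 passed, all lower in knock-out. With no filter on low values 25 passed, 3 of them higher in knock-out and with all of the 17 among them. The stricter filter, with 18015 probe sets tested, gave 11, all among the 17, since the other 6 were not tested, and the fit with the replicate number as a block gave 9, all among the 17. That block pairs replicates 1 to 6 of both genotypes without knock-out 7, and 8 of the 17 did not pass in it, among them Mirg 1457030_at (limma adjusted p = 0.0624). Same-numbered arrays of both genotypes were littermates for numbers 2, 3 and 5, and came from unlike litters for 1, 4 and 6. Correlations of same-numbered deviations ran from -0.43 to 0.20 over 6 pairs, and 0 of 12 arrays correlated best with their own number. Littermates of unlike genotype had a median r of only 0.05. These correlations therefore cannot decide whether the numbers mark pairs. Litter as a block called the same 17. Leaving out single arrays gave 15 to 18 probe sets and leaving out whole litters 12 to 16, the 12 without litter 250. The litter test, added after seeing the data, called 11 probe sets as described, 976 after quantile normalization, 646 after median centring and 1 without litter 262, with 0 members each time. The cause was not tested. Among single member values, 5 moved by more than the SD between arrays, all under median centring, namely Drosha 1428656_at (-0.22), Xpo5 1428560_at (-0.08), Ago2 1455294_at (-0.23), Ago4 1453289_at (-0.14) and Ddx6 1434697_at (0.19). Without a detection call in the files, signal over background is unknown for the 8 weak probe sets.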

Other observations

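Across the 4 pathway lists 8 of 160 tested probe sets had an unadjusted limma p under 0.05, beside 3.96% of all tested probe sets, and they are named here after their values were seen. Besides Lsm7 they were single probe sets of Dis3l2, Hspa8, Tob2, Atxn2, Dcp1b, Xrn1 and Gigyf2, each with a limma adjusted p of 1.00. Lsm7 excepted, none was the most intense tested probe set of its gene. The most intense probe sets of those other genes did not have an unadjusted limma p under 0.05. Tob2 is an antiproliferative protein that binds the deadenylase. Its probe set 1431776_at had signals of 38.9 to 87.6 in wild-type and 82.1 to 104 in knock-out arrays (log2 difference 0.51 ± 0.14 SE). Gigyf2, a translational repressor, had 36.4 to 64.1 against 53.3 to 90.02 on 1451856_at, with a log2 difference of 0.44 ± 0.13 SE. These Tob2 and Gigyf2 signals lay around the filter of 56.9. Atxn2 1438144_x_at was the only one of the 8 with a lower knock-out mean, at a log2 difference of -0.31 ± 0.13 SE.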
